A study of Mus musculus with 4 samples.

Results

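The data described here are the messenger RNA levels of 7 genes of prostaglandin metabolism, *Ptgs1*, *Ptgs2*, *Ptges*, *Ptgds*, *Ptger2*, *Ptger4* and *Hpgd*, among 28693 genes counted in single cells of mouse mammary glands. The list was chosen by the high *Ptgs2* level of a knockout luminal group in these same libraries, so the *Ptgs2* levels of luminal cells are given as a description without a test. All 7 symbols were found, and each matched 1 row. Prostaglandins are short-lived lipid signals made from arachidonic acid that phospholipases free from membranes. The cyclooxygenases turn it into prostaglandin H2, terminal synthases turn that into prostaglandin E2 or D2, receptors on the surface of nearby cells read the product, and a dehydrogenase inactivates it. In the mammary gland the pathway is best known for the inducible cyclooxygenase, which is low in resting epithelium and raised in inflamed tissue and in many tumours.

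The study asked how removal of LATS1 and LATS2, kinases of the Hippo pathway that restrain YAP and TAZ, from mammary luminal cells bears on the surrounding stroma. It measured 4 droplet-based single-cell libraries, each from 1 adult nulliparous mouse. All 4 mice carried floxed *Lats1* and *Lats2* alleles and a Cre-dependent EYFP reporter in Rosa26, and all received 2 mg tamoxifen on each of 5 days, with glands taken 7 days after the last dose. The 2 CTL mice, which the labels call WT, had no Cre and 1 copy of the reporter. Both LATS1/2-KO mice also carried Krt8-CreERT2, in which the *Krt8* promoter limits recombination to luminal cells. Replicate 1 had 1 copy of the reporter and replicate 2 had both, so reporter dose differed between the LATS1/2-KO mice. The sort kept live cells of all types. The study states that the samples were run together on the droplet platform, and no source used here names a batch within that run.

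After filters, 18200 cells were kept, between 3515 and 5272 per library, with 38792520 to 46810771 unique molecular identifiers (UMIs, counted molecules) per library. Pairs of libraries shared 4 to 12 cell barcodes. Cells were grouped by markers into luminal ER- (luminal cells without oestrogen receptor expression, the milk-producing lineage), luminal ER+, basal, fibroblast, perivascular, endothelial, lymphocyte and macrophage classes, named from their RNA alone. A further 658 epithelial cells with high *Krt8*, all from LATS1/2-KO mice, met no lineage's marker limits and are called Krt8-high cells. In each epithelial class nearly all CTL cells and nearly all LATS1/2-KO cells lay in different clusters. The luminal ER- class held all 10 of its markers in every library, at a summed 17948 and 21838 CPM, the UMIs of a gene scaled to the class total, in CTL and 11900 and 12893 CPM in LATS1/2-KO mice. Its 9 basal markers, at 0 in no library, summed to 35.8 and 27.3 CPM in CTL and to 1678 and 1367 CPM in LATS1/2-KO mice, and their part in the results below was not tested. The targeted genes read in luminal ER- cells at 25.7 and 25.3 CPM in CTL and 13.4 and 15.4 CPM in LATS1/2-KO for *Lats1*, and at 15.0 and 16.7 CPM in CTL and 27.3 and 29.2 CPM in LATS1/2-KO for *Lats2*. A 3' tag can lie outside a deleted exon, so these levels do not check the deletion.

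The start regions of *Ptgs2* and *Ptges* are printed because these genes moved most, in opposite directions, in luminal ER- cells. Each runs from 250 bases before to 50 bases after the RefSeq start on mouse build GRCm38.p6, 5' to 3' on the gene's strand. Capitals mark matches to 8 motifs searched on both strands, which are spelled out after the sequences.
Ptgs2 (chr1:150099781-150100080, + strand): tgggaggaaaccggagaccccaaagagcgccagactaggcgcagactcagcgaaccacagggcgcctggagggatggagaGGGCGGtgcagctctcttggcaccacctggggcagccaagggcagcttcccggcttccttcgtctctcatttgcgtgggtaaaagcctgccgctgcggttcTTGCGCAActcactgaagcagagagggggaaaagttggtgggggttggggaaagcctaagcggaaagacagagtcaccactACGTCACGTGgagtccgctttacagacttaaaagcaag
Ptges (chr2:30903248-30903547, - strand): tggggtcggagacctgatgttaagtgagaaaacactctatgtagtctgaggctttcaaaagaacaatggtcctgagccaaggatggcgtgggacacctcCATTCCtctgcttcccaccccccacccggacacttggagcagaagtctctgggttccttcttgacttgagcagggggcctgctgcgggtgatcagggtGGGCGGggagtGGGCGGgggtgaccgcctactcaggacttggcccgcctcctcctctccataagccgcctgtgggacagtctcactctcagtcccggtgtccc

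The *Ptgs2* window held the C/EBP palindrome TTGCGCAA at position -69, counted from the start at 1, a motif found in 0.18% of 32851 mouse promoter windows of this length. It also held the core of a cyclic AMP response element, ACGTCA, at position 13, which overlapped an E-box at position 17. The E-box was searched as CACGTG. These motifs stood in 7.51% and 7.15% of all windows. A GC box, searched as GGGCGG, lay at position -170. The *Ptges* window held a TEAD element, searched as GGAATG and here on the opposite strand, at position -151, as did 14.66% of windows. Its GC boxes lay at positions -53 and -42, and 35.66% of windows held at least 1. Neither window held the TATA box, searched as TATAAA and found in 13.62% of windows, nor the AP-1 element, searched as TGANTCA and found in 7.81%, nor the CCAAT box, found in 37.41%. The annotated *Ptges* gene extends upstream of this start, to 30929863 on chromosome 2. TEAD factors are the DNA partners of YAP and TAZ, which LATS kinases hold back. These matches describe letters and not binding, and no binding data were analysed here.

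*Ptgs2* encodes COX-2, the inducible cyclooxygenase. In luminal ER- cells it read 1.37 and 6.78 CPM in the CTL libraries and 115.5 and 39.4 CPM in the LATS1/2-KO libraries. Both LATS1/2-KO values lay far above both CTL values, and the values of the replicates of a group lay several-fold apart. The ratio of the group means was 19.0, and the fitted log2 fold change was 3.96 with SE 0.72. With 1 library left out it ran from 2.96 without LATS1/2-KO replicate 1 to 5.48 without CTL replicate 2. At least 1 *Ptgs2* UMI was found in 0.849% and 2.18% of CTL cells and in 29.99% and 18.7% of LATS1/2-KO cells of this class, whose median depth was 6792.5, 8050.5, 9140 and 9684 UMIs in the same order. With every cell thinned to 2000 UMIs the shares were 0.317% and 0.48% in CTL and 11.7% and 6.18% in LATS1/2-KO mice. Lymphocytes, a class with little *Ptgs2*, gave 0% and 0% in CTL and 0% and 6.15% in LATS1/2-KO mice at median depths of 1557 to 3082 UMIs. From fibroblast collagens seen in luminal cells, RNA free in the suspension was estimated to add 10.8 and 3.55 CPM of *Ptgs2* to this class in LATS1/2-KO mice.

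Luminal ER+ cells held less *Ptgs2*. They read 0.377 and 1.90 CPM in CTL and 15.9 and 8.38 CPM in LATS1/2-KO mice. Both LATS1/2-KO values lay above both CTL values. The free RNA estimate for these LATS1/2-KO cells was 12.8 and 4.90 CPM, which is most of their level, and lineage markers assigned cell by cell gave a log2 fold change of 7.41 in place of 3.48. With 1 library left out it ran from 2.80 without CTL replicate 1 to 5.07 without CTL replicate 2.

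*Ptgs2* was highest in the Krt8-high cells, at 699.5 and 356.0 CPM in LATS1/2-KO replicates 1 and 2. These cells made up 7.49% and 6.09% of the cells and carried 39.9% and 41.4% of all *Ptgs2* UMIs of their libraries. Of them, 74.8% (95% exact binomial interval 69.8 to 79.3) and 60.7% (55.2 to 66.1) had at least 1 *Ptgs2* UMI, and 56.1% and 33.1% did after thinning. Intervals cover counting error only. *Ptgs2* was left out of the clustering but is among the 10 leading genes of this cluster. The list was chosen because *Ptgs2* leads a knockout luminal group, so its level there is not a finding. Members of the cluster kept epithelial keratins and claudins, at a summed 21473 and 20386 CPM for 6 genes, had little of the luminal ER- list, 1028 and 1223 CPM, and carried basal markers at 5646 and 3388 CPM. A finer clustering split them into a group led by *Sox11*, with 784.3 and 456.2 CPM *Ptgs2*, and a group led by *Crct1*, with 663.8 and 281.1 CPM. In all these cells replicate 1 was the higher.

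**Figure D1:**
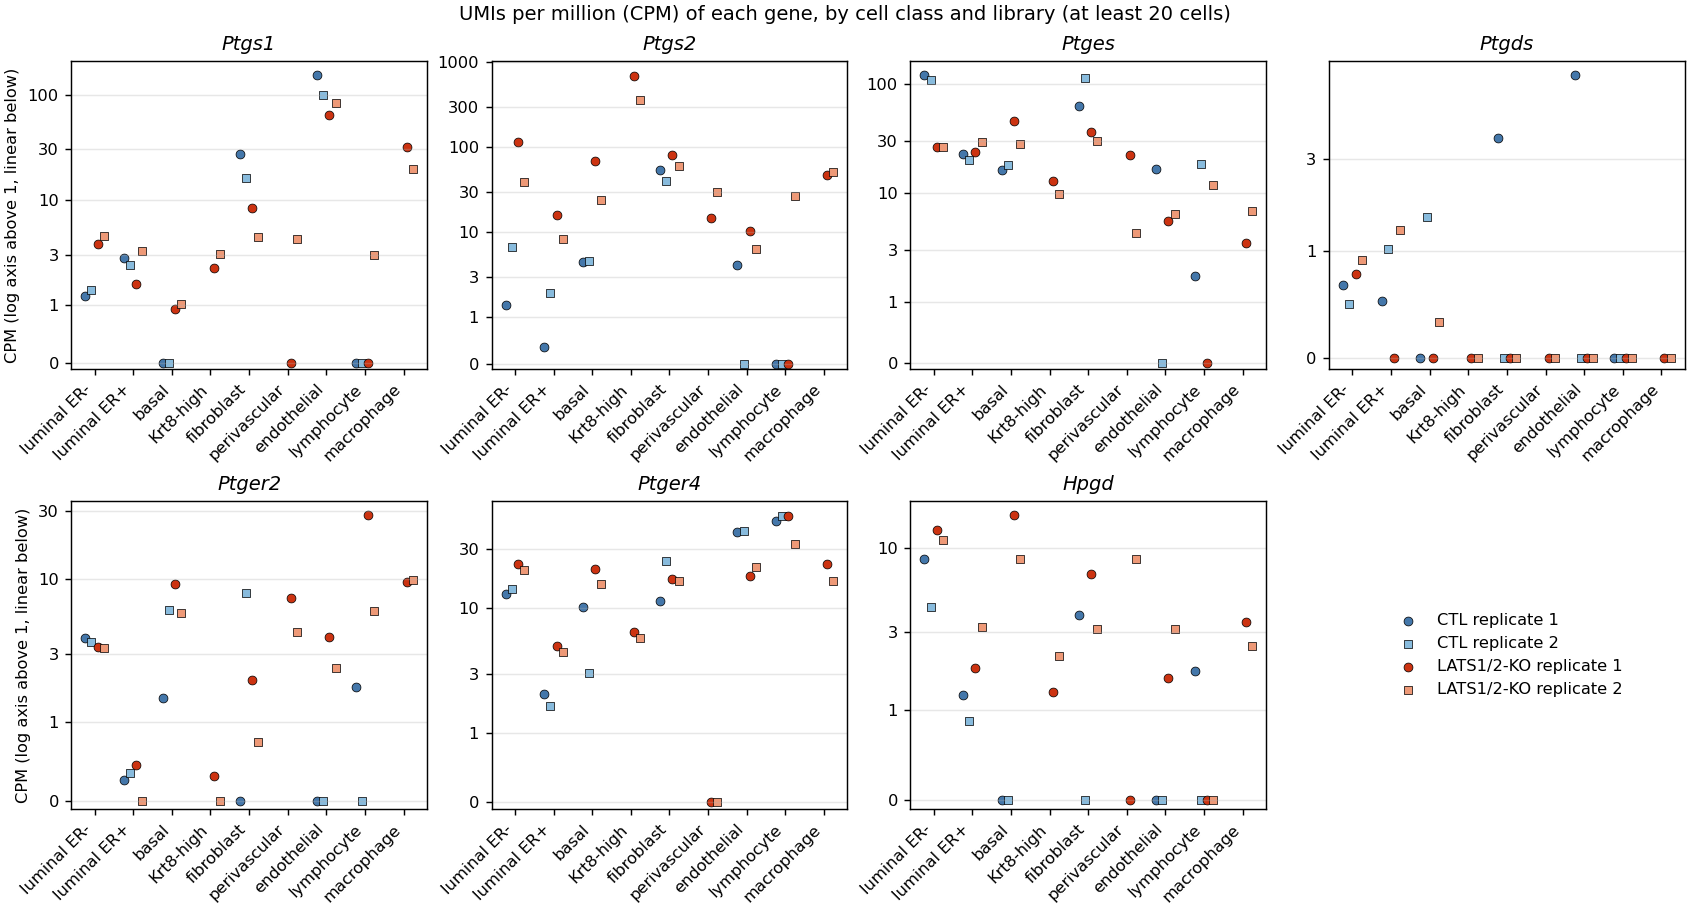
Level of each of the 7 genes by cell class, in CPM of the class's summed UMIs on a symmetric log axis, with 1 point per library and CTL and LATS1/2-KO marked apart. Only libraries with at least 20 cells of a class are drawn. *Ptgs2* peaked in Krt8-high cells at 699.5 and 356.0 CPM, *Ptges* in CTL luminal ER- cells at 118.6 and 107.9 CPM, and *Ptgs1* in endothelial cells.

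Within the LATS1/2-KO luminal ER- class, *Ptgs2* differed between its clusters. Cluster 1, led by *Wfdc3*, *Kcnj15* and *Scd1* and holding all 10 luminal ER- markers, read 29.4 and 31.6 CPM. Cluster 3, led by the mitotic gene *Ube2c* and the YAP target *Ankrd1*, read 157.1 and 45.1 CPM. The cluster 3 value was the higher in both mice, and the gap was wide in replicate 1 only. CTL cells lay almost entirely in cluster 0, at 1.38 and 6.80 CPM.

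Basal cells are not the target of Krt8-CreERT2, and 3.56% and 4.90% of them had an EYFP UMI in LATS1/2-KO mice, near the 3.003% and 2.77% of fibroblasts. In basal cells *Ptgs2* read 4.41 and 4.53 CPM in CTL, from 3 UMIs in each library, and 68.3 and 23.9 CPM in LATS1/2-KO mice. LATS1/2-KO values lay above CTL values, and the log2 fold change of *Ptgs2* was 3.19 (SE 0.66). It is given without a test, since with 3 UMIs in each CTL library *Ptgs2* passed the low-count filter only through LATS1/2-KO mice. The free RNA estimate for *Ptgs2* in these basal cells was 31.9 and 10.3 CPM, and its part in the result was not tested. The direction held with each library left out in turn, at log2 fold changes from 2.28 to 3.80.

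Stromal *Ptgs2* was sizeable in CTL mice as well. Fibroblasts read 54.0 and 39.8 CPM in CTL, from 14 and 5 UMIs, and 81.7 and 60.5 CPM in LATS1/2-KO mice. The groups did not overlap, yet the log2 fold change of 0.61 (SE 0.36) missed the threshold (adjusted p = 0.396). Restricted to the fibroblast cluster that both conditions shared it was -0.15. In LATS1/2-KO mice macrophages read 47.0 and 51.1 CPM and perivascular cells 14.7 and 29.9 CPM. CTL mice gave 7 macrophages each and 18 and 7 perivascular cells, so those classes were not compared. By their mean level in LATS1/2-KO mice the classes ran from Krt8-high cells through luminal ER- cells, fibroblasts, macrophages, basal cells, perivascular cells, lymphocytes and luminal ER+ cells to endothelial cells. Neighbours in this order overlapped in range, except Krt8-high with luminal ER- cells and fibroblasts with macrophages. Class sums cannot tell fewer expressing cells from less RNA per cell.

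*Ptgs1*, the constitutive cyclooxygenase COX-1, had its highest level in endothelial cells, which held 28.7% and 20.6% of its UMIs in CTL and 32.9% and 33.5% in LATS1/2-KO mice. Luminal cells, far more numerous, held more of its UMIs in CTL, 24.8% and 29.4% in luminal ER- and 40.3% and 46.1% in luminal ER+ cells. In endothelial cells it read 151.7 and 97.9 CPM in CTL and 63.2 and 82.5 CPM in LATS1/2-KO mice. Both LATS1/2-KO values were below both CTL values, and the log2 fold change was -0.75 (SE 0.29, adjusted p = 0.157). In luminal ER- cells the level was low, at 1.22 and 1.38 CPM in CTL and 3.78 and 4.47 CPM in LATS1/2-KO mice. These groups stood apart, and *Ptgs1* rose by 1.33 on the log2 scale (SE 0.24, edgeR adjusted p = 0.00255). The call was kept without any 1 library, and at 2000 UMIs per cell the value was 1.05 with adjusted p = 0.105. The rise lay in cluster 3, at 4.87 and 6.42 CPM, with 1.53 and 1.76 CPM in cluster 1. Luminal ER+ cells read 2.80 and 2.41 CPM in CTL and 1.59 and 3.22 CPM in LATS1/2-KO mice, values that overlapped. Fibroblasts read 27.0 and 15.9 CPM in CTL, from 7 and 2 UMIs, and 8.32 and 4.46 CPM in LATS1/2-KO mice, a log2 fold change of -1.89 (SE 0.65, adjusted p = 0.153).

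*Ptges* encodes the inducible membrane-bound prostaglandin E2 synthase that works downstream of COX-2. CTL luminal ER- cells had the highest mean level, at 118.6 and 107.9 CPM, with fibroblasts of CTL replicate 2 as high, and carried 86.8% and 84.5% of all *Ptges* UMIs of their libraries. LATS1/2-KO luminal ER- cells read 26.3 and 26.0 CPM. The groups stood far apart with little spread, and *Ptges* fell by 2.45 on the log2 scale (SE 0.09, edgeR adjusted p = 6.6e-06). The fall had adjusted p of at most 1.92e-05 when any 1 library was left out. At least 1 UMI was found in 53.9% and 54.9% of CTL cells and in 20.9% and 23.9% of the deeper LATS1/2-KO cells. Cluster 1 kept 44.99 and 38.4 CPM and cluster 3 held 17.2 and 17.1 CPM. In Krt8-high cells, where *Ptgs2* peaked, *Ptges* read 12.8 and 9.83 CPM.

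Luminal ER+ cells read 22.9 and 20.03 CPM *Ptges* in CTL and 23.4 and 29.0 CPM in LATS1/2-KO mice, a log2 fold change of 0.25 (SE 0.17, adjusted p = 0.302). Basal cells read 16.2 and 18.1 CPM in CTL, from 11 and 12 UMIs, and 45.04 and 28.0 CPM in LATS1/2-KO mice. The groups did not overlap and basal *Ptges* rose by 0.96 (SE 0.35, edgeR adjusted p = 0.0392). The basal call was lost without either CTL library (adjusted p = 0.122 and 0.11) and without LATS1/2-KO replicate 1 (0.283). Fibroblasts read 61.7 and 111.4 CPM in CTL, from 16 and 14 UMIs, and 35.7 and 30.1 CPM in LATS1/2-KO mice, a log2 fold change of -1.23 (SE 0.37, adjusted p = 0.114). Without LATS1/2-KO replicate 1 the fibroblast value passed, at -1.27 with adjusted p = 0.0455. The effect on *Ptges* in luminal ER- cells was below that in luminal ER+ cells by 2.66 on the log2 scale (SE 0.17, edgeR adjusted p = 5.02e-06). Against basal cells the difference was 3.56 (SE 0.28, adjusted p = 8.99e-15), and against fibroblasts 1.31 (SE 0.34, adjusted p = 0.00199). The fibroblast difference was lost without CTL replicate 1 (0.92, adjusted p = 0.229) and with library totals in place of TMM scaling (0.83, adjusted p = 0.11).

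*Ptgds*, the lipocalin-type prostaglandin D2 synthase, was close to absent. Luminal ER- cells read 0.686 and 0.507 CPM in CTL and 0.789 and 0.923 CPM in LATS1/2-KO mice, from 11 to 25 UMIs a library. These groups did not overlap, but the log2 fold change was 0.17 (SE 0.35, adjusted p = 0.683). In luminal ER+ cells LATS1/2-KO libraries held 0 and 2 UMIs, and the log2 fold change was -1.12 (SE 1.29, adjusted p = 0.55).

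**Figure D2:**
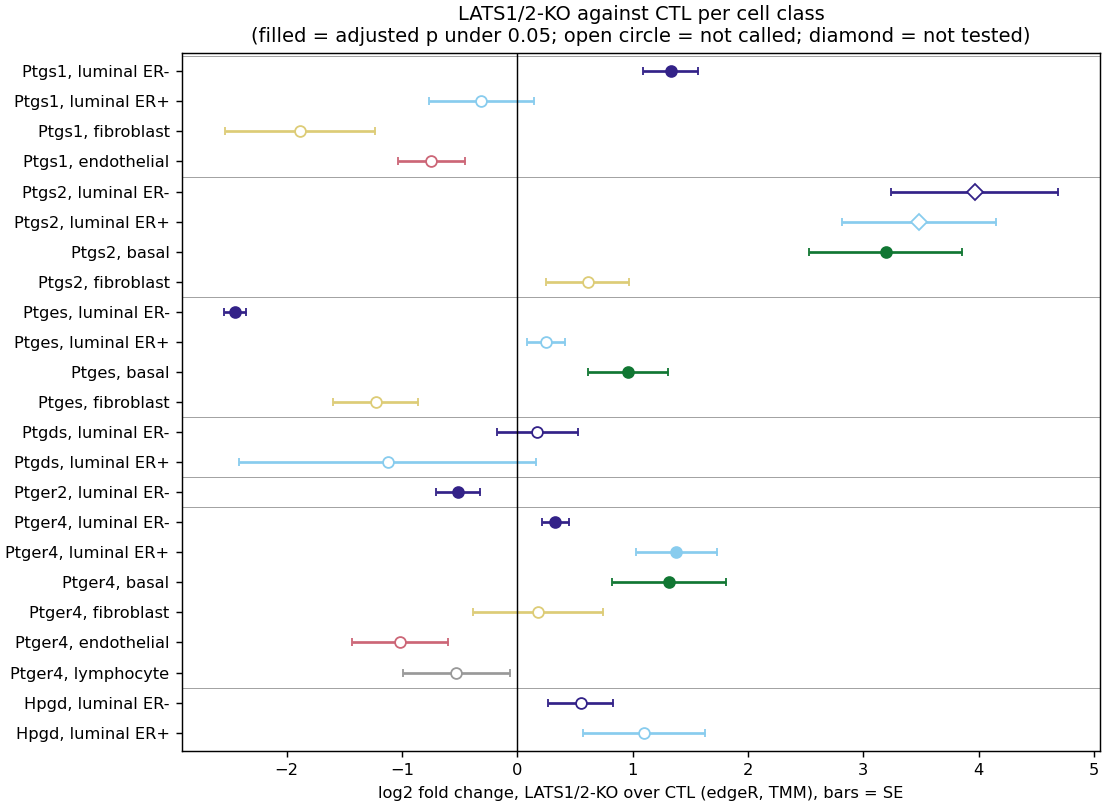
Log2 fold change of LATS1/2-KO over CTL for each gene in each class that passed the low-count filter, with bars of 1 SE from edgeR. Filled points passed an adjusted p of 0.05, and luminal *Ptgs2* is drawn without a test. The basal *Ptgs2* and *Ptger4* points are filled, but no test is given for them in the text. *Ptges* lay at -2.45 in luminal ER- cells and at 0.25 and 0.96 in luminal ER+ and basal cells. *Hpgd* in basal cells is not drawn because both CTL libraries held 0 UMIs.

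*Ptger4* encodes EP4, a prostaglandin E2 receptor that raises cyclic AMP. It was highest in lymphocytes, at 50.5 and 55.3 CPM in CTL and 55.7 and 32.7 CPM in LATS1/2-KO mice, values that overlapped (log2 fold change -0.53, SE 0.46, adjusted p = 0.746). Endothelial cells read 41.0 and 41.97 CPM in CTL, from 10 and 9 UMIs, and 18.2 and 21.4 CPM in LATS1/2-KO mice (log2 fold change -1.02, SE 0.42, adjusted p = 0.18). Fibroblasts read 11.6 and 23.9 CPM in CTL, from 3 UMIs each, and 17.1 and 16.7 CPM in LATS1/2-KO mice, which lay inside the CTL range.

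Epithelial *Ptger4* read higher in LATS1/2-KO mice in 3 classes. It was called in the luminal classes, and each of these calls was lost without at least 1 of the libraries. Luminal ER- cells read 12.96 and 14.3 CPM in CTL and 22.8 and 20.4 CPM in LATS1/2-KO mice, a rise of 0.33 on the log2 scale (SE 0.12, edgeR adjusted p = 0.0411). That call was lost without either CTL library (adjusted p = 0.203 and 0.0605) and without LATS1/2-KO replicate 1 (0.201). Luminal ER+ cells read 2.05 and 1.64 CPM in CTL and 5.00 and 4.51 CPM in LATS1/2-KO mice, the latter from 22 and 7 UMIs, a rise of 1.38 (SE 0.35, edgeR adjusted p = 0.0317). It was lost without CTL replicate 2 (adjusted p = 0.0884) and without LATS1/2-KO replicate 1 (0.193) or 2 (0.0752), and the free RNA estimate was 1.74 and 1.43 CPM in the LATS1/2-KO libraries. Basal cells read 10.3 and 3.02 CPM in CTL, from 7 and 2 UMIs, and 20.9 and 15.7 CPM in LATS1/2-KO mice. The log2 fold change was 1.31 (SE 0.50). It is given without a test, since basal *Ptger4* passed the low-count filter only through LATS1/2-KO mice. The value was 0.67 without CTL replicate 2 and 2.50 without CTL replicate 1. The groups did not overlap in any of these classes. Within the LATS1/2-KO luminal ER- class, cluster 1 read 35.4 and 31.9 CPM and cluster 3 read 16.6 and 12.1 CPM, on either side of the class sum.

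*Ptger2* encodes EP2, a second prostaglandin E2 receptor coupled to cyclic AMP. Luminal ER- cells read 3.89 and 3.64 CPM in CTL and 3.36 and 3.29 CPM in LATS1/2-KO mice, and the log2 fold change was -0.51 (SE 0.19, edgeR adjusted p = 0.0494). The groups did not overlap. The call was lost when any 1 library was left out, at adjusted p from 0.0828 to 0.185, and with library totals in place of TMM scaling the value was -0.18 (adjusted p = 0.436). In LATS1/2-KO mice cluster 1 read 6.50 and 6.25 CPM and cluster 3 read 1.85 and 1.14 CPM. Basal cells held 1 and 4 UMIs in CTL and 20 and 17 in LATS1/2-KO mice, under the low-count filter. LATS1/2-KO macrophages read 9.57 and 9.85 CPM. In Krt8-high cells *Ptger2* was all but absent, with 1 UMI in replicate 1 and 0 in replicate 2.

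*Hpgd* encodes the dehydrogenase that inactivates prostaglandin E2. Luminal ER- cells read 8.501 and 4.33 CPM in CTL and 12.7 and 11.2 CPM in LATS1/2-KO mice. The groups did not overlap, while the CTL libraries differed enough that the log2 fold change of 0.55 (SE 0.28) missed the threshold (edgeR adjusted p = 0.128). Without CTL replicate 1 it was 1.12 and passed, with adjusted p = 0.00404. With library totals in place of TMM it was 0.88 (adjusted p = 0.0266). The level split the class. Cluster 1 read 29.9 and 22.6 CPM, above both CTL libraries, and cluster 3 read 4.44 and 2.92 CPM. In basal cells *Hpgd* had 0 UMIs in both CTL libraries and 34 and 25 UMIs, 15.8 and 8.55 CPM, in LATS1/2-KO mice. Taking 3 UMIs over the CTL group as the floor, 2.24 CPM, the level was at least 5.20-fold higher. No test is given for it, since a gene at 0 in CTL passes the low-count filter only by being high in LATS1/2-KO mice. The free RNA estimate for *Hpgd* in these cells was 2.19 and 1.38 CPM. Luminal ER+ cells read 1.24 and 0.873 CPM in CTL and 1.82 and 3.22 CPM in LATS1/2-KO mice, from 8 and 5 UMIs, a log2 fold change of 1.10 (SE 0.53, adjusted p = 0.166).

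**Figure D3:**
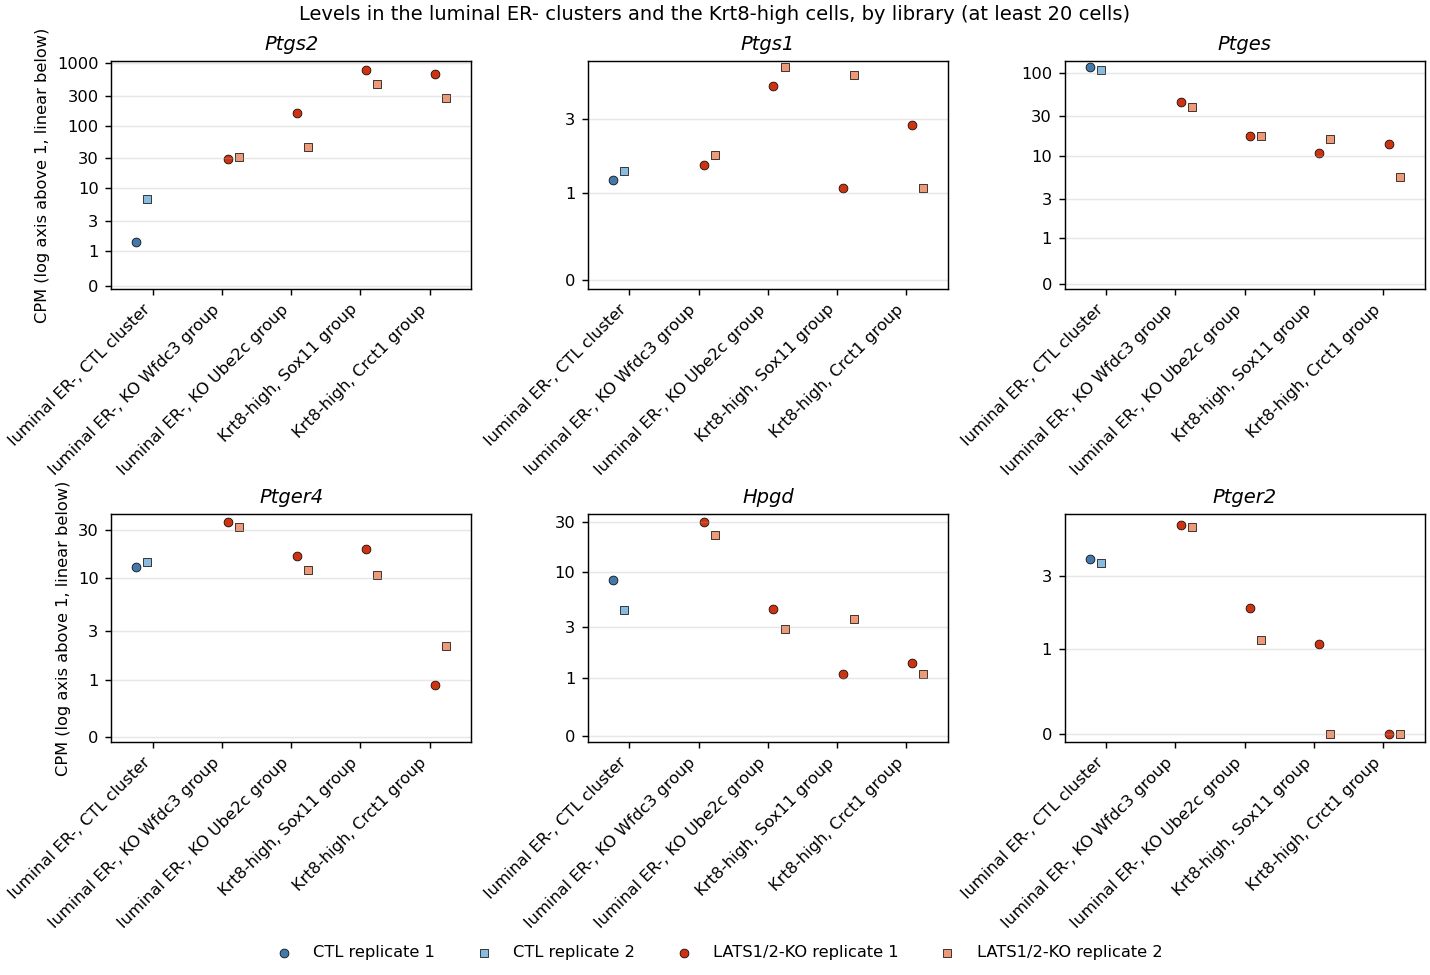
Levels of the members except *Ptgds* in the luminal ER- clusters and the *Sox11* and *Crct1* groups of Krt8-high cells, in CPM on a symmetric log axis, with 1 point per library. *Ptgs2* was at 29.4 and 31.6 CPM in cluster 1 and 157.1 and 45.1 CPM in cluster 3. It was at 784.3 and 456.2 CPM in the *Sox11* group and 663.8 and 281.1 CPM in the *Crct1* group. *Ptges*, *Ptger4* and *Hpgd* were higher in cluster 1 than in cluster 3.

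Counted over the list, 7 members passed the low-count filter in luminal ER- cells and 6 were tested, of which 2 rose (*Ptgs1*, *Ptger4*) and 2 fell (*Ptges*, *Ptger2*). In that comparison 65.0% of 13595 genes were called, so 4 of 6 was close to the background. Of the calls, 51.8% were rises with TMM scaling and 70.9% with library totals, which moved the median log2 fold change of all genes from 0.01 to 0.34. In luminal ER+ cells 1 of 5 tested members rose, against 28.5% of genes called. In basal cells *Ptges* rose, where 33.5% of genes were called. Nothing is read from the count there, since 4 members passed the filter, *Hpgd*, *Ptgs2* and *Ptger4* only through LATS1/2-KO mice. Fibroblasts gave 0 of 4 (3.49% of genes), endothelial cells 0 of 2 (6.71%) and lymphocytes 0 of 1 (1.71%) in edgeR, and DESeq2 called 0 in each. At an unadjusted p under 0.05 the edgeR counts were 2, 2 and 0. Both LATS1/2-KO mice were compared with both CTL mice throughout, so these p-values rest on 2 animals a group, and the smallest counts of CTL stromal cells, 25 fibroblasts and 35 endothelial cells, limit what those classes could show.

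The difference of the effect between luminal ER- cells and other classes was tested for 6 members, and for 5 against lymphocytes, where *Ptgds* was too low. It passed for 3 against luminal ER+ cells, where 28.4% of genes passed, for *Ptges* against basal cells (26.1%), for 2 against fibroblasts (13.4%), for 1 against endothelial cells (12.1%) and for 0 against lymphocytes (4.28%). Against lymphocytes *Ptges* had an unadjusted p of 0.0153, and it was the only member under 0.05 there. *Ptgs1* moved down relative to luminal ER- cells by 1.94 in endothelial cells (SE 0.40, adjusted p = 0.00142) and by 3.18 in fibroblasts (SE 0.88, adjusted p = 0.004). The fibroblast value was -2.36 without CTL replicate 1 (adjusted p = 0.456) and -2.61 without LATS1/2-KO replicate 2 (adjusted p = 0.19).

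EYFP marks cells whose reporter was recombined. Among LATS1/2-KO luminal cells of both classes, 531 of 2652 and 631 of 2310 had at least 1 EYFP UMI. In CTL luminal ER- cells, which had no Cre, 0.272% and 0.379% did. Of the Krt8-high cells, which were not part of this comparison, 50.7% and 57.3% did. EYFP-positive cells were deeper, at median 14182 and 16810 UMIs against 7952 and 8100 UMIs for cells at 0, and a reporter UMI is more easily missed in a shallow cell. A cell at 0 is therefore not shown to be unrecombined.

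*Ptgs2* read 152.8 and 41.2 CPM in EYFP-positive luminal cells and 77.9 and 35.4 CPM in cells at 0. It was the higher in EYFP-positive cells of both mice, by a wide margin in replicate 1 only, and the log2 difference was 0.64 (SE 0.11). No test is given, since the list was chosen on *Ptgs2* in knockout luminal cells. After thinning to 2000 UMIs, EYFP was found in 63 of 251 and 26 of 130 luminal cells with *Ptgs2*, and in 13.4% and 19.3% of those without.

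*Ptges* went the other way, at 16.5 and 19.4 CPM in EYFP-positive cells and 29.8 and 30.8 CPM in cells at 0. Its levels did not overlap, and the log2 fold change was -0.77 (SE 0.11, edgeR with the mouse as a block, adjusted p = 6.21e-06). *Hpgd* read 6.26 and 4.78 CPM in EYFP-positive cells and 13.1 and 14.8 CPM in cells at 0 (log2 fold change -1.37, SE 0.18, adjusted p = 1.4e-06). Both receptors were lower as well. *Ptger4* read 15.4 and 13.5 CPM against 22.0 and 23.5 CPM (log2 fold change -0.68, SE 0.12, adjusted p = 0.000128). *Ptger2* read 2.36 and 1.22 CPM against 3.15 and 4.38 CPM, from 20 and 14 UMIs in EYFP-positive cells (log2 fold change -1.14, SE 0.33, adjusted p = 0.00808). *Ptgs1* (0.57, adjusted p = 0.0679) and *Ptgds* (0.83, adjusted p = 0.172) did not pass. Thus 4 of the 6 members other than *Ptgs2* fell, where 39.8% of 12800 genes were called.

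These differences went with cluster membership. Of EYFP-positive luminal cells, 78.3% and 75.6% lay in cluster 3, against 30.4% and 21.9% of cells at 0. Within cluster 1 and within cluster 3, comparisons added after the data were seen, edgeR called 0 of 5 and 0 of 6 members, *Ptgs2* counted among them, with 0 and 1 at an unadjusted p under 0.05. DESeq2 was not run there. Within cluster 1 the log2 difference of *Ptgs2* was 0.24, and within cluster 3 it was 0.08. Those of *Ptges* were -0.13 and -0.36 (adjusted p = 0.911 and 0.227), and those of *Ptger4* -0.26 and -0.19 (adjusted p = 0.831 and 0.613). For *Hpgd* they were -0.45 and 0.11 (adjusted p = 0.689 and 0.912), so its sign turned in cluster 3. In cluster 3 of replicate 2, *Ptgs2* read 42.7 CPM in EYFP-positive cells and 48.8 CPM in cells at 0. Cluster 1 held 74 and 127 EYFP-positive cells, which limits the precision there.

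**Figure D4:**
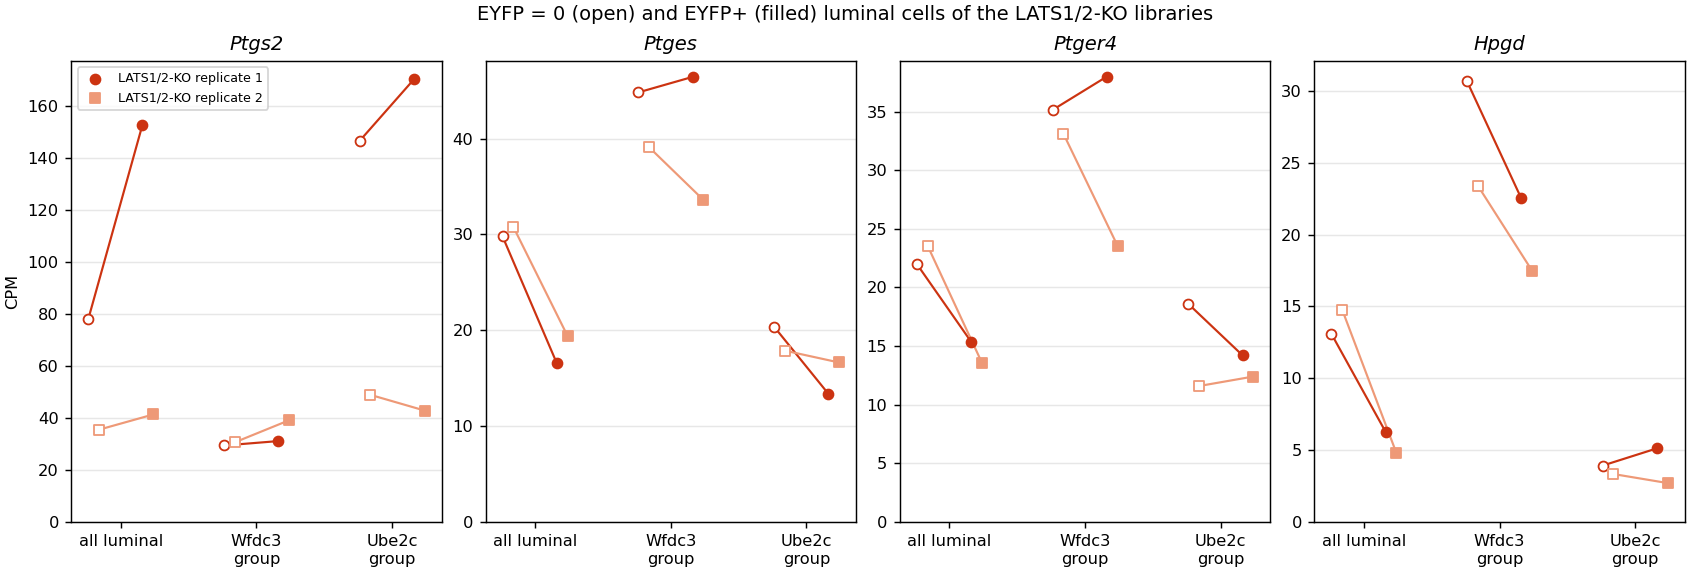
Levels of *Ptgs2*, *Ptges*, *Ptger4* and *Hpgd* in EYFP-positive luminal cells and luminal cells at 0 EYFP UMIs of the LATS1/2-KO mice. They are drawn for all luminal cells and for the luminal ER- clusters led by *Wfdc3* and *Ube2c*. The axis is linear, in CPM, and a line joins the values of each mouse. Over all luminal cells *Ptgs2* was the higher in EYFP-positive cells, at 152.8 and 41.2 against 77.9 and 35.4 CPM. *Ptges*, *Ptger4* and *Hpgd* were the lower there.

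A list of 33 other genes of the pathway, from phospholipases to transporters, was counted in the same fits. In luminal ER- cells 23 were tested, of which 10 rose and 6 fell, where 65.0% of all genes were called. Their median log2 fold change was -0.13, against 0.01 over all genes. The log2 fold change of *Pla2g7*, a phospholipase that degrades platelet-activating factor, was 5.92 (SE 0.30). It read 0.23 and 0.46 CPM in CTL and 29.6 and 22.4 CPM in LATS1/2-KO mice. *Pla2g7* is counted among the rises but passed the low-count filter only through LATS1/2-KO mice, so no test is given for it. The receptor *Ptger3* and the exporter *Abcc4*, counted among the rises, passed the low-count filter only through LATS1/2-KO mice, so their calls are not read. *Ptger3* read 0 and 0.05 CPM in CTL and 0.46 and 0.78 CPM in LATS1/2-KO mice. *Abcc4* read 0.08 and 0.05 CPM in CTL and 0.50 and 0.44 CPM in LATS1/2-KO mice. *Pla2g16*, a phospholipase, fell by 1.74 (SE 0.12, edgeR adjusted p = 3.59e-05), from 117.2 and 97.7 CPM to 38.5 and 42.9 CPM. *Fam213b*, a prostaglandin F synthase, fell by 1.65 (SE 0.12, adjusted p = 5.89e-05). The thromboxane receptor *Tbxa2r*, counted among the falls and never above 0.53 CPM, had a log2 fold change of -1.88. *Tbxa2r* passed the filter only through CTL mice, so neither its call nor the counts of rises and falls are read.

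Of the same genes, 5 rose and 5 fell among 19 tested in luminal ER+ cells, and 4 rose and 2 fell among 15 in basal cells, where 28.5% and 33.5% of all genes were called. *Pla2g7* in luminal ER+ cells, at 0.11 and 0.21 CPM in CTL, and *Ptgr1* in basal cells passed the low-count filter only through LATS1/2-KO mice. Both stand among the rises, so nothing is read from these counts. The log2 fold change of *Pla2g7* was 5.07 in luminal ER+ cells, given without a test, and 2.60 in basal cells. The prostaglandin uptake carrier *Slco2a1* rose by 1.49 and 1.95, and *Pla2g16* fell by 0.71 and 1.52. In basal cells the reductase *Ptgr1* was at 0 in CTL and at least 4.05-fold above the floor in LATS1/2-KO mice. Fibroblasts gave 0 of 20 in edgeR, where 3.49% of all genes were called, and 4 at an unadjusted p under 0.05. Lymphocytes gave 0 of 3 (1.71%), with 1 at an unadjusted p under 0.05. Endothelial cells gave 1 rise (*Abcc4*) and 1 fall (*Pla2g16*) of 12 (6.71%). There *Abcc4*, at 16.4 and 4.66 CPM in CTL, passed the low-count filter only through LATS1/2-KO mice, so its call is not read. In EYFP-positive cells 2 rose (*Ptgis*, *Ptges3*) and 6 fell of 19, where 39.8% of all genes were called. *Ptgis* was low, at 1.25 and 1.58 CPM in cells at 0 and 1.3 and 4.17 CPM in EYFP-positive cells, so its rise lay in replicate 2. The lowest log2 fold changes were those of *Fam213b* (-0.999), *Pla2g7* (-0.86) and *Cbr3* (-0.81).

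As a description over 30 class sums that share libraries and free RNA, the genes whose log2 level ran most like *Ptgs2* were *Inhba* (Pearson r = 0.90), *Plxna1* (0.83), *Slc4a4* (0.82), *Spns1* (0.81) and *Plau* (0.80). *Ptges* ran most like *Reps2* (0.84), *Ptgs1* like *Shank3* (0.87), *Ptger4* like *Elmo1* (0.86) and *Hpgd* like *Nsmce2* (0.81). *Ptger2* and *Ptgds* had lower maxima, 0.61 with *Pfkp* and 0.78 with *Nxph1*. Between members the correlations were weak. *Ptgs2* and *Ptges* had r = 0.29, and the highest was 0.43 for *Ptgs2* and *Hpgd*. Genes raised by tissue dissociation, a list of 10 led by *Fos* and *Jun*, summed in luminal ER- cells to 15024 and 17145 CPM in CTL and to 5863 and 7236 CPM in LATS1/2-KO mice. Their part in the *Ptgs2* levels was not tested.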

How the data were processed

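The authors deposited UMI counts per gene and barcode, unnormalized, in matrices whose header names Cell Ranger 6.1.2. The submitters' processing notes list Cell Ranger 3.1.0 and mm10, and their roles are not given in the sources used here. The members and lists were chosen with earlier results of these data known, and the limits for naming clusters were set after marker levels were seen. Of 20324 barcodes, 18200 with over 500 genes and under 20% mitochondrial UMIs were kept. Clusters came from Seurat 5.3.0 (SCTransform 0.4.2, 20 components, resolution 0.4), leaving the members, pathway genes and EYFP out of the variable genes. Doublets were not removed, since Scrublet called only 85 cells. Its 676 highest scores were removed as an alternative.

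Counts were summed per library and class, in classes with at least 20 cells in every library, and tested on the whole table with edgeR 4.0.16 (R 4.3.3; quasi-likelihood, TMM, filterByExpr, Benjamini-Hochberg, threshold 0.05). Scripts were tested on simulated data. EYFP and between-class fits had the mouse as a block. CPM are UMIs scaled to the class sum, and 3' UMI counts do not scale with transcript length, so levels were not compared between genes. A free RNA estimate scaled a gene's library level by the share of other lineages' genes (collagens in luminal cells, milk genes elsewhere). Symbols to be named were the members, the 3 highest and 3 lowest called pathway genes, and the genes most correlated with each member. DESeq2 1.42.0 and other cell filters were alternatives.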

Additional observations from a re-analysis of the deposited data

Results flagged for a closer look

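Each value here is the effect of LATS1/2-KO on log2 level in another class minus that in luminal ER- cells, and each, apart from basal *Hpgd*, passed a test of the difference itself. *Ptges* differed by 2.66 in luminal ER+ cells, 3.56 in basal cells and 1.31 in fibroblasts. *Ptgs1* differed by -1.65 in luminal ER+ cells (adjusted p = 0.0299), -3.18 in fibroblasts and -1.94 in endothelial cells. The luminal ER+ value of *Ptgs1* rests on 7 and 5 UMIs in LATS1/2-KO mice, and it was -1.35 without CTL replicate 1 (adjusted p = 0.119) and -1.17 without LATS1/2-KO replicate 1 (0.304). *Ptger4* differed by 1.00 in luminal ER+ cells (adjusted p = 0.0481), a call lost without CTL replicate 2 (adjusted p = 0.136) and without LATS1/2-KO replicate 1 (0.304) or 2 (0.081). *Hpgd* in basal cells, at 9.71, is listed without support from its test, because both CTL libraries held 0 UMIs there, the gene entered the fit only through LATS1/2-KO mice, and the size depends on the prior count.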

How the results depend on the processing

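The count of members called in luminal ER- cells, 4, was 2 with DESeq2, 2 with cells thinned to 2000 UMIs and 2 to 3 with 1 library left out. In luminal ER+ cells, where it was 1, it was 0 with the replicate block, DESeq2, under 10% mitochondrial UMIs, marker gates per cell and thinning, 2 without the highest Scrublet scores and 0 to 1 with a library left out. In basal cells, where it was 4 with *Hpgd*, *Ptgs2* and *Ptger4* counted, it was 2 with DESeq2, 2 with marker gates and 0 after thinning. In fibroblasts, where it was 0, the replicate block gave 1 (*Ptges*, -1.23, adjusted p = 0.041), and leaving out libraries 0 to 1. In the EYFP comparison, where it was 5 with *Ptgs2* counted, it was 3 with no replicate block, 3 with DESeq2 and 0 within either cluster. The 8 differences between classes, basal *Hpgd* counted, became 5 with DESeq2 and 6 to 8 with a library left out. After thinning, *Ptges* was the only member left to test in luminal ER+ and in basal cells. The labels do not say that equal replicate numbers pair mice. Deviations of same-numbered libraries had correlations of 0.017 to 0.077, which cannot settle whether mice were paired. The block gave 3 in luminal ER- cells, losing *Ptger2* (adjusted p = 0.0646) and *Ptger4* (0.0526) and adding *Hpgd* (0.0308).

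Signs turned for values that had not passed. *Ptgds* in luminal ER- cells was -0.28 with marker gates, -0.019 with Krt8-high cells added and -0.016 to 0.41 with a library left out. In luminal ER+ cells leaving out a library gave -6.49 to 0.66 for *Ptgds* and -0.70 to 0.26 for *Ptgs1*, and with marker gates *Ptgs1* was 0.18. Fibroblast *Ptger4* was -0.27 to 0.64 with a library left out and -0.018 without the highest Scrublet scores. Fibroblast *Ptgs2* was -0.15 in the shared cluster. Among values that had passed, EYFP *Ptger2* was 0.12 in cluster 1 and *Hpgd* 0.11 in cluster 3, where *Ptgs1*, which had not, was -0.094. Luminal *Ptgs2*, given without a test, kept its sign, with the ranges over left-out libraries given above, and moved by more than its replicate spread without CTL replicate 2 in both classes and with gates in luminal ER+ cells.

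Genes called over the whole table went from 3568 in luminal ER+ cells to 2302 with DESeq2, 1348 after thinning and 1148 without LATS1/2-KO replicate 1. They went from 3119 in basal cells to 1286 with DESeq2 and 1788 after thinning, and from 8838 in luminal ER- cells to 5481 after thinning. Fibroblasts went from 303 to 901 with no low-count filter, 839 with the replicate block, 171 after thinning, 658 in the shared cluster and 3 to 588 with a library left out. Endothelial cells went from 508 to 0 with no low-count filter, 243 with DESeq2, 269 after thinning and 0 to 256 with a library left out, and lymphocytes from 67 to 187, 123 and 37 with no filter, the block and DESeq2, and up to 206 with a library left out. The EYFP comparison went from 5094 to 943 with no replicate block, 1774 with DESeq2, 2451 after thinning, and 22 and 354 within clusters 1 and 3.

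Depth limits low members most. *Ptgds* and *Ptger2* rest on under 150 UMIs a library, and CTL stromal classes on few cells.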
